A study of Mus musculus with 14 samples.

Results

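SMAD proteins carry the signal of transforming growth factor beta (TGF-beta) from its receptors to the genome, and several of the genes they switch on act back on the signal. The mRNA levels of 10 such genes were followed here: Smad2, Smad3, Smad4, Smad6, Smad7, Pmepa1, Skil, Tgif1, Tgfbi and Tgfb1i1. They were chosen by name, and each name was found among the 36413 gene names measured in the study. No measured value entered the choice.

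TGF-beta binds a pair of receptor kinases that phosphorylate Smad2 and Smad3, which join Smad4 and enter the nucleus. The related bone morphogenetic proteins (BMPs) signal through other receptor-regulated SMADs and the same Smad4. Smad6 and Smad7 are the inhibitory SMADs, which are induced by the pathway and block it, while Skil (SnoN) and Tgif1 encode nuclear corepressors and Pmepa1 encodes a membrane protein that holds back the receptor-regulated SMADs. Tgfbi encodes a secreted matrix protein induced by TGF-beta, and Tgfb1i1 encodes Hic-5, an adaptor at focal adhesions of contractile fibroblasts. In tumors, TGF-beta is known for driving fibroblasts towards a matrix-producing, contractile state.

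The study asked how the heat shock factor Hsf1 in fibroblasts shapes gene expression when tumor cells and fibroblasts grow together. D2A1 mouse breast cancer cells and mouse embryonic fibroblasts (MEFs) were co-cultured and separated by cell sorting. The 7 groups of 2 arrays were tumor cells with Hsf1 null (-/-) MEFs, tumor cells with wild-type (WT, Hsf1 +/+) MEFs, tumor cells alone, null MEFs with tumor cells, null MEFs alone, WT MEFs with tumor cells and WT MEFs alone. All were profiled after 72 hours in medium with fetal calf serum. The MEFs that were paired with tumor cells for profiling the tumor cells had received mitomycin C, which stops division, at 10 ug/ml for 2 hours, whereas the profiled MEFs are not labelled as treated. D2A1 is a single established line, so the tumor groups stand for that line only. The labels do not say whether the A and B arrays of a group came from separate cultures, so the p-values measure the spread between these arrays, which may be technical.

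Values are the authors' log2 signals, and differences are log2 differences ± SE from 1 model over all 14 arrays (limma, 2 arrays a group). A gene passed where its p, adjusted by Benjamini-Hochberg over all 25896 genes tested, was under 0.05. All 10 genes were among those tested. The A arrays are called slide A and the B arrays slide B here, by the replicate letter in the sample titles. The titles give the letter only, so a slide shared by arrays of the same letter is an assumption. Each of the 46 member differences that passed ran in 1 direction on either slide. On the 12 arrays whose scanner file was usable, the share of spots well above background was 53.1% to 63.4%. Having 2 arrays a group limited the precision. For slide A of tumor cells with null MEFs and of tumor cells alone the scanner file was unusable, but in the deposited log2 values the lowest r between any pair of arrays was 0.935.

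The targeted gene, Hsf1, had a log2 signal of 10.07 and 9.97 in null MEFs alone, against 12.01 and 11.69 in WT MEFs alone. Its array probe therefore read lower in the libraries labelled null but still gave signal, and whether the probe lies in the deleted part was not recorded. All 16 fibroblast markers were well above background in both kinds of MEF alone, and 9 of 16 were in tumor cells alone. Krt18, an epithelial keratin, averaged 16.50 in tumor cells alone, against 7.65 in null MEFs alone and 8.01 in WT MEFs alone, while Epcam and Cdh1, which define many epithelial cells, were not well above background in tumor cells alone. Another keratin, Krt19, went the other way, at 5.36 in tumor cells alone, against 11.84 in null MEFs alone and 8.71 in WT MEFs alone. Of 11 epithelial markers tested, 6 were higher and 2 lower in tumor cells than in null MEFs. Against WT MEFs 4 were higher and 2 lower.

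Sorted cells from co-culture gave raised signal of genes typical of their partner. Whether RNA of the partner gave this signal was not tested. MEF-typical genes, those with a 32-fold or greater excess in MEFs, had in tumor cells with null MEFs a median of 9.62% (slide A) and 23.9% (slide B) of the MEF level (266 genes), and in tumor cells with WT MEFs 7.46% and 7.40% (230 genes). Tumor-typical genes, chosen by the same excess in tumor cells, stood at 6.80% and 7.46% of the tumor level in null MEFs with tumor cells (92 genes) and at 33.7% and 33.1% in WT MEFs with tumor cells (77 genes). The summed epithelial marker signal on the linear scale was 28069 to 41426 in null MEFs with tumor cells against 4150 to 4988 in null MEFs alone, and at 74269 to 85559 in WT MEFs with tumor cells against 1340 to 1470 in WT MEFs alone. Krt18 carried much of that sum, at a log2 mean of 14.87 in null MEFs with tumor cells and 16.26 in WT MEFs with tumor cells, while over the 11 epithelial markers tested the median difference was 0.02 in null MEFs (1 higher, 0 lower) and -0.05 in WT MEFs (4 higher, 2 lower). These shares are the signal above the same cells grown alone, over the same excess in the other cell type. For tumor cells the MEF level was that of the profiled co-cultured MEFs, which are not labelled as treated with mitomycin C, and the treated partners were not analysed here. For MEFs the tumor level was that of tumor cells alone, not of co-cultured tumor cells. Many co-culture results are also given with the partner's share subtracted, and the others are given as measured only. Macrophage, endothelial and muscle markers were followed too. Of 8 macrophage markers, 4 to 6 were well above background in each group, with Cd14 at 13.08 in tumor cells alone, against 5.75 in null MEFs alone and 8.08 in WT MEFs alone. The 7 endothelial markers summed to 351 to 421 over the groups, with 2 or 3 of them well above background, and the 6 muscle markers to 240.2 to 391.7, with 1 to 3. The part that other cells had in the results was not tested beyond this.

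Start-site sequences are shown for Tgfbi, Smad6 and Smad3, which were higher, lower and only slightly lower in null than in WT MEFs. These and Tgif1 were the 4 members with a window shown or counted here, from the RefSeq promoter table (build GRCm38.p6). Windows of Smad2, Smad4 and Smad7 are not reported here. Each run is the 250 bases before the annotated start on the gene's strand, and capitals mark the SMAD box CAGAC and the GC-rich SMAD element GGCGC, each searched on both strands.
Tgfbi, chr13:56609336-56609585, plus strand: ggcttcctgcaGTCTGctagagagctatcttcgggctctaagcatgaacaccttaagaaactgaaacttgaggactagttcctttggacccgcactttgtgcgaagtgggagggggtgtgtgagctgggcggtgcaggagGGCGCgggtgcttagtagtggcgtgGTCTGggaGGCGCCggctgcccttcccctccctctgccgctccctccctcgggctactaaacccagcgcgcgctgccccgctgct
Smad6, chr9:64022060-64022309, minus strand: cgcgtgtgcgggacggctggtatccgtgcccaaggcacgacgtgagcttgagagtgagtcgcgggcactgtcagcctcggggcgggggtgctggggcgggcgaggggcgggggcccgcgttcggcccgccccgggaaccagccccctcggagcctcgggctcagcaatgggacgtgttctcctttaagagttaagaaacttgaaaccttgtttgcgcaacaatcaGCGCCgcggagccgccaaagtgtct
Smad3, chr9:63757995-63758244, minus strand: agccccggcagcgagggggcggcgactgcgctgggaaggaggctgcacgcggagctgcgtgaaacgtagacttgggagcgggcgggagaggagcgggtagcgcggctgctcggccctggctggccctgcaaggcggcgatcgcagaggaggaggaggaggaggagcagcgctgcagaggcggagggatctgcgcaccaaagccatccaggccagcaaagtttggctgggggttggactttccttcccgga

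The Tgfbi window held 2 SMAD boxes, beginning 239 and 85 bases before the start, and 3 GC-rich elements, beginning 110, 77 and 76 bases before it, of which the last pair overlap. Of all 32851 windows of this length in the table, 42.2% held at least 1 SMAD box and 11.7% at least 2, and 32% held at least 1 GC-rich element and 10.6% at least 3. Smad6 had no SMAD box and 1 GC-rich element, 25 bases before the start, and Smad3 had neither. Tgif1 has 5 windows on chromosome 17, of which 3 held a SMAD box. No window of these 4 genes held the AP-1 letters TGANTCA (6.75% of all windows) or the paired heat shock units GAANNTTC (6.69%) and TTCNNGAA (7.17%), searched on both strands. These are matches of letters in short windows and describe no binding.

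Levels differed between the 7 groups far more for some of the genes than for others. The standard deviation of the 7 group means was 2.72 for Tgfb1i1, 2.21 for Tgfbi, 1.56 for Smad6, 1.29 for Pmepa1 and 1.19 for Smad7. It was 0.21 for Smad3, 0.29 for Smad2, 0.32 for Smad4 and 0.45 for both Skil and Tgif1, while the median over all genes tested was 0.30. Smad2, Smad3 and Smad4 thus varied about as much as a typical gene or less, and Tgfb1i1, Tgfbi, Smad6, Pmepa1 and Smad7 varied more. Of the 70 levels, 1 was not well above background, that of Tgfb1i1 in tumor cells alone.

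**Figure D1:**
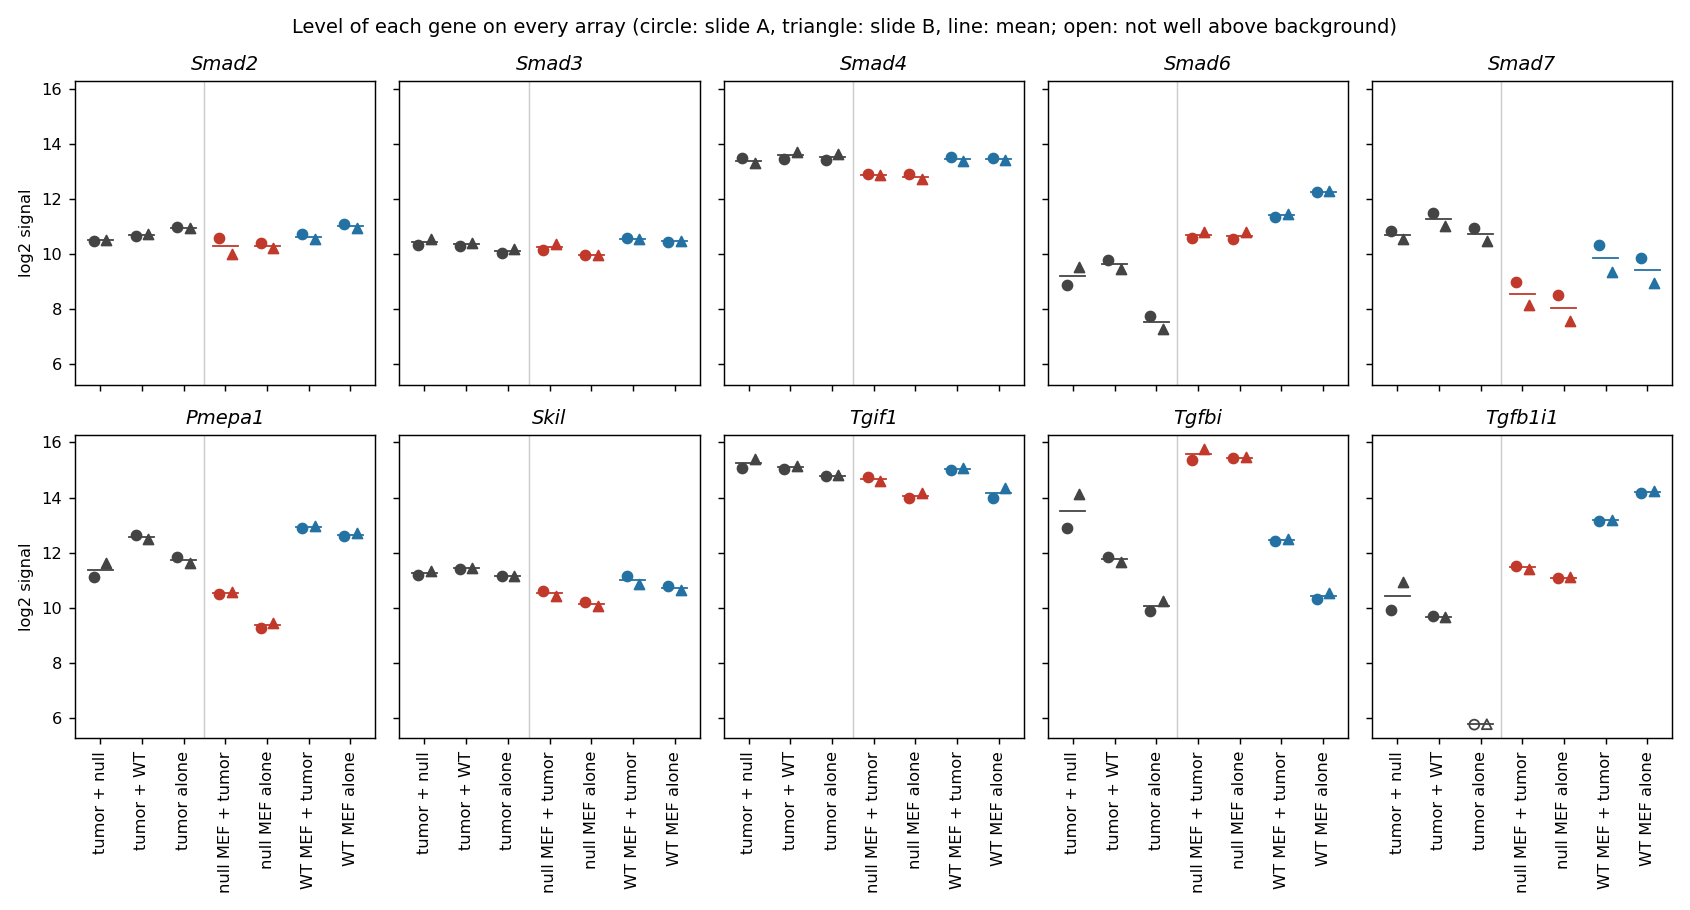
Log2 signal of each of the 10 genes (y axis) in the 7 groups (x axis), with circles for slide A, triangles for slide B, lines for the mean of the 2 arrays and open symbols where the signal was not well above background. Tgfbi stands at 15.36 to 15.77 in all null MEF arrays and at 10.32 to 12.51 in all WT MEF arrays, and the group means of Smad2, Smad3 and Smad4 span 0.73, 0.59 and 0.78 units.

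The comparison of null with WT MEFs grown alone asked what the fibroblasts differ in before they meet tumor cells. The labels do not say how many MEF stocks stand for each genotype. An effect of Hsf1 and a difference between stocks therefore cannot be told apart in any null against WT comparison here. Of the 10 genes, 9 passed, 1 higher and 8 lower in null MEFs, where 33.8% of all genes tested passed. Their median difference was -0.68, against 0.03 over all genes tested. Tgfbi was the gene that was higher, and Tgif1 was the gene that did not pass.

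Among the signal transducers, Smad2 had 10.41 and 10.20 in null MEFs alone, against 11.10 and 10.94 in WT MEFs alone, a difference of -0.71 ± 0.17 (adjusted p = 0.00768). Smad3 had 9.96 and 9.96 in null MEFs, against 10.45 and 10.49 in WT MEFs (-0.51 ± 0.12, adjusted p = 0.00624). Smad4, the shared partner, had 12.89 and 12.70 in null MEFs, against 13.48 and 13.40 in WT MEFs (-0.64 ± 0.13, adjusted p = 0.00287). For all of them the null arrays lay below the WT arrays without overlap. Smad2 did not pass without WT MEFs alone A (-0.63, adjusted p = 0.0603) or null MEFs alone B (-0.61, adjusted p = 0.0649). Smad3 and Smad4 are each read by 2 probes, and on the 12 sound scanner arrays every probe alone was lower in null MEFs, by -0.49 ± 0.13 and -0.59 ± 0.12 for Smad3 and by -0.69 ± 0.17 and -0.50 ± 0.15 for Smad4. The 2 probes of Smad3 lie at chr9:63497492-63497551 and chr9:63494574-63494633 (mm9, per the file headers).

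Both inhibitory SMADs were lower in null MEFs. Smad6, whose probe lies at chr9:63800980-63801039, had 10.53 and 10.80 in null MEFs alone, against 12.25 and 12.27 in WT MEFs alone, so that it was lower by a log2 difference of -1.60 ± 0.23 (3.02-fold, adjusted p = 0.000285). Smad7 had 8.52 and 7.58 in null MEFs alone, against 9.86 and 8.96 in WT MEFs alone (-1.36 ± 0.44, adjusted p = 0.0363). The Smad7 arrays did not overlap between the genotypes, yet the slides differed. Smad7 read higher on slide A in 7 of 7 groups, by 0.28 to 0.98. Within slide A the Smad7 difference was -1.34 and within slide B -1.38. Smad7 did not pass without WT MEFs alone A (-0.91, adjusted p = 0.255), without null MEFs alone B (-0.89, adjusted p = 0.259) or without the 2 arrays with a faulty scanner file (adjusted p = 0.0541).

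The largest fall among the feedback genes was that of Pmepa1, whose probes lie at chr2:173049970-173050029 and chr2:173049966-173050025. It had 9.28 and 9.46 in null MEFs alone, against 12.59 and 12.73 in WT MEFs alone, and the difference was -3.29 ± 0.16 (9.75-fold, adjusted p = 1.76e-07). Each of its 2 probes alone read lower in null MEFs on the sound scanner arrays, by -2.99 ± 0.13 and -3.66 ± 0.14. Skil differed by less, with 10.21 and 10.06 in null MEFs, against 10.80 and 10.65 in WT MEFs (-0.59 ± 0.12, adjusted p = 0.00344). Tgif1, read at chr17:71193629-71193688, had 13.98 and 14.16 in null MEFs, against 13.99 and 14.34 in WT MEFs, and these arrays overlapped (-0.09 ± 0.15, adjusted p = 0.718).

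The 2 target genes went opposite ways. Tgfbi, read at chr13:56740460-56740519, had 15.44 and 15.45 in null MEFs alone, against 10.32 and 10.55 in WT MEFs alone, and the difference was 5.01 ± 0.31 (32.2-fold, adjusted p = 7.45e-07). Tgfb1i1, read at chr7:135397091-135397150, had 11.08 and 11.12 in null MEFs, against 14.16 and 14.23 in WT MEFs, a difference of -3.09 ± 0.24 (8.53-fold, adjusted p = 3.25e-06). The gap between genotypes was many times the gap between the 2 arrays of a group for both genes. No probe of the 10 genes was saturated on a sound array.

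The pathway lists other than that of SMAD partners were also mostly lower in null MEFs alone, beside the 33.8% of all genes that passed in either direction and a median of 0.03. Fibroblast markers moved with them, 2 of 16 higher and 9 lower (median -1.21), and their part in the pathway lists was not tested. Of 23 further TGF-beta target genes tested, 0 were higher and 17 lower (median -1.35). They include Snai1, a repressor of epithelial genes, at -2.15 ± 0.15, and the tropomyosin gene Tpm1 at -1.53 ± 0.09. Of 16 genes for TGF-beta ligands, receptors and latency proteins, 1 was higher and 11 were lower (median -1.49), among them the latent TGF-beta binding proteins Ltbp2 (-5.62 ± 0.20) and Ltbp1 (-3.94 ± 0.19) and the co-receptor Eng (-4.08 ± 0.19). Of 8 BMP-SMAD target genes 0 were higher and 6 lower, with Id4 at -4.80 ± 0.19 and Hey1 at -1.38 ± 0.11. Of 19 SMAD partners and regulators 2 were higher, among them the corepressor Tgif2 (1.21 ± 0.14), and 4 lower, among them the ubiquitin ligase Smurf2 (-0.77 ± 0.13), with a median of -0.08, a share of calls near that of all genes.

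**Figure D2:**
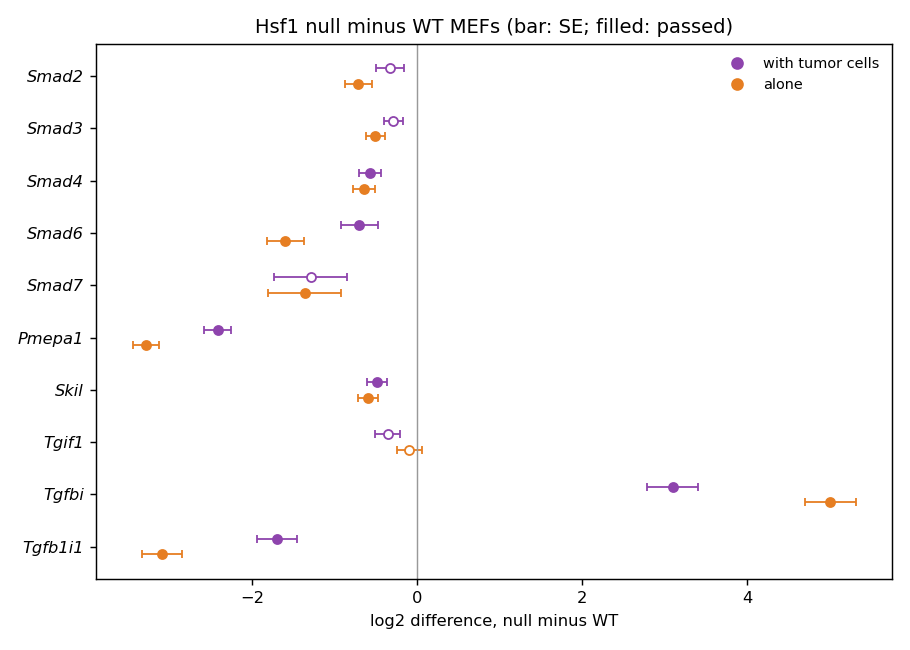
Log2 difference of null minus WT MEFs (x axis) for the 10 genes (rows), with tumor cells (purple) and alone (orange). Bars are the SE and filled points passed. Tgfbi is the gene far above 0 in both cultures, at 3.10 and 5.01, and Pmepa1 and Tgfb1i1 are the farthest below.

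With tumor cells present, 6 of the 10 genes passed between null and WT MEFs, 1 higher and 5 lower in null MEFs, where 29.5% of all genes tested passed. Tgfbi had 15.36 and 15.77 in null MEFs with tumor cells, against 12.43 and 12.51 in WT MEFs with tumor cells (3.10 ± 0.31, 8.55-fold, adjusted p = 3.68e-05). Pmepa1 had 10.49 and 10.58 in null MEFs, against 12.91 and 12.98 in WT MEFs (-2.42 ± 0.16, 5.34-fold, adjusted p = 2.76e-06). Tgfb1i1 had 11.53 and 11.41 in null MEFs, against 13.14 and 13.20 in WT MEFs (-1.70 ± 0.24, 3.25-fold, adjusted p = 0.000357). None of these groups overlapped.

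Smaller differences passed for Smad4 (-0.57 ± 0.13, adjusted p = 0.00683), Skil (-0.48 ± 0.12, adjusted p = 0.0129) and Smad6 (-0.70 ± 0.23, adjusted p = 0.0406). Smad6 had 10.59 and 10.81 in null MEFs with tumor cells, against 11.34 and 11.46 in WT MEFs with tumor cells, and did not pass when either array of these groups was left out (adjusted p = 0.069 to 0.181) or either array of the MEFs alone (adjusted p = 0.0503 to 0.058). With the partner's share subtracted its difference was -1.16 (adjusted p = 0.00176). Smad4 did not pass without WT MEFs with tumor cells A (-0.51, adjusted p = 0.061), and Skil did not pass without that array (-0.35, adjusted p = 0.129) or without slide B of the null co-culture (-0.39, adjusted p = 0.082).

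Smad7 had 8.98 and 8.14 in null MEFs with tumor cells, against 10.34 and 9.36 in WT MEFs with tumor cells, and fell just short (-1.29 ± 0.44, adjusted p = 0.0507). With the slide as a block, its adjusted p was 0.000309, and the differences within slide A and slide B were -1.36 and -1.22. It also passed when either array of the MEFs alone was left out (adjusted p = 0.0433 to 0.0457), and was -0.58 with the partner's share subtracted (adjusted p = 0.624). Subtraction left Smad7 at 10.09 (A) and 7.17 (B) in WT MEFs with tumor cells, and at 8.71 and 7.39 in null MEFs. It took the same mean tumor level from both slides, although Smad7 read higher on slide A. The subtracted Smad7 value is therefore unstable. Smad2 (-0.33 ± 0.17), Smad3 (-0.29 ± 0.12) and Tgif1 (-0.36 ± 0.15) did not pass, with adjusted p from 0.0949 to 0.184. Without null MEFs with tumor cells A, Smad2 passed (-0.62, adjusted p = 0.00886), and with the partner's share subtracted, Smad3 did (-0.45, adjusted p = 0.0207). Of the 23 other TGF-beta target genes, 0 were higher and 15 lower in null MEFs here, such as Timp1, an inhibitor of matrix proteases (-1.53 ± 0.11). Of all genes tested 29.5% passed in either direction. Fibroblast markers moved with the target genes, 1 of 16 higher and 10 lower (median -1.18), and their part was not tested.

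In null MEFs with tumor cells Pmepa1 rose. It was the 1 gene of 10 that passed, where 3.14% of all genes tested passed, with 10.49 and 10.58 in null MEFs with tumor cells, against 9.28 and 9.46 in null MEFs alone (1.16 ± 0.16, 2.23-fold, adjusted p = 0.00182). The co-culture arrays lay above both arrays of null MEFs alone, and with the tumor share subtracted the difference was 1.01 (adjusted p = 0.0261). Tgif1 had 14.74 and 14.61 in null MEFs with tumor cells, against 13.98 and 14.16 in null MEFs alone (0.60 ± 0.15, adjusted p = 0.0665), and passed with the slide as a block (adjusted p = 0.0274) and without either array of tumor cells with null MEFs (adjusted p = 0.0384). Its co-culture arrays lay above both arrays alone. Tgfbi had 15.36 and 15.77 in co-culture, against 15.44 and 15.45 alone, so that these arrays overlapped (0.12 ± 0.31, adjusted p = 0.99). Among the other pathway genes Ltbp2 (3.68 ± 0.20), Ltbp1 (1.49 ± 0.19) and Tgfb1 (0.90 ± 0.18) rose in null MEFs, 3 of 16 genes of the ligand, receptor and latency list with 0 lower, and Tgfb1 did not pass after subtraction (0.72, adjusted p = 0.176). Id4 rose by 3.32 ± 0.19, 1 of 2 BMP-SMAD target genes that rose.

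In WT MEFs 4 of the 10 genes passed with tumor cells, 2 higher and 2 lower, where 10.5% of all genes tested passed. Tgfbi had 12.43 and 12.51 in WT MEFs with tumor cells, against 10.32 and 10.55 in WT MEFs alone (2.03 ± 0.31, 4.09-fold, adjusted p = 0.00177). The level in tumor cells alone was 9.89 and 10.25, below that of WT MEFs in either culture. In tumor cells with WT MEFs it was 11.83 and 11.68, above that of WT MEFs alone. With the tumor share subtracted at the level of tumor cells alone, the rise was 2.52 (adjusted p = 0.000503). Tgif1 had 14.98 and 15.07 in WT MEFs with tumor cells, against 13.99 and 14.34 in WT MEFs alone (0.86 ± 0.15, adjusted p = 0.00404), and 0.97 after subtraction (adjusted p = 0.00323).

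The 2 genes that fell in WT MEFs, Smad6 and Tgfb1i1, were both far lower in tumor cells alone than in WT MEFs alone. Smad6 had 11.34 and 11.46 in WT MEFs with tumor cells, against 12.25 and 12.27 in WT MEFs alone (-0.86 ± 0.23, adjusted p = 0.0375). Tgfb1i1 had 13.14 and 13.20 in WT MEFs with tumor cells, against 14.16 and 14.23 in WT MEFs alone (-1.02 ± 0.24, adjusted p = 0.0213). With the tumor share subtracted, neither passed, at -0.31 (adjusted p = 0.368) for Smad6 and -0.44 (adjusted p = 0.308) for Tgfb1i1, and neither passed when any 1 of the 4 WT MEF arrays was left out (adjusted p from 0.0873 to 0.203). Smad6 also did not pass without either array of null MEFs alone (adjusted p = 0.0507). In sorted bulk samples, fewer cells of a type and less RNA per cell cannot be told apart. Pmepa1 had a difference of 0.29 ± 0.16 in WT MEFs (adjusted p = 0.338), and passed after subtraction at 0.65 (adjusted p = 0.0436). That subtraction used tumor cells alone, at 11.85 and 11.62, whereas tumor cells with WT MEFs had 12.63 and 12.49.

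Whether the 2 fibroblast genotypes responded differently on the log2 scale was tested directly, as the null response minus the WT response. Tgfbi was the 1 gene of 10 that passed, where 3.03% of all genes tested passed, at -1.91 ± 0.44 (adjusted p = 0.0477). Its response was -0.08 and 0.32 on slides A and B in null MEFs, against 2.11 and 1.96 in WT MEFs. The call was marginal: leaving out any 1 array of the MEF groups gave -1.71 to -2.12 with adjusted p from 0.0531 to 0.166, and adjusted p was 0.0637 without either array of tumor cells alone and 0.0733 without either array of tumor cells with WT MEFs. Tgfb1i1 had a difference of responses of 1.39 ± 0.34 (adjusted p = 0.0605) and Pmepa1 of 0.87 ± 0.23 (adjusted p = 0.0874). Tgfb1i1 passed with the slide as a block (adjusted p = 0.0449), and both genes passed without the 2 arrays with a faulty scanner file (adjusted p = 0.00117 for Tgfb1i1 and 0.0213 for Pmepa1). After the tumor share was subtracted the difference of responses was 0.91 for Tgfb1i1 (adjusted p = 0.273) and 0.36 for Pmepa1 (adjusted p = 0.648), against -2.30 for Tgfbi (adjusted p = 0.0215).

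In tumor cells, the 2 co-culture comparisons share tumor cells alone. With null MEFs 3 of the 10 genes passed, all higher, where 19.7% of all genes tested passed, and with WT MEFs 4 passed, all higher, where 11.8% passed. The median difference was 0.21 with null MEFs and 0.43 with WT MEFs, against -0.09 and -0.04 over all genes tested. Smad6, Tgfbi and Tgfb1i1 passed with either partner, and Pmepa1 passed with WT MEFs. Smad6, Tgfbi and Tgfb1i1 were also read against their level in the partner MEFs, since MEF-typical signal was raised in tumor cells with MEFs.

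**Figure D3:**
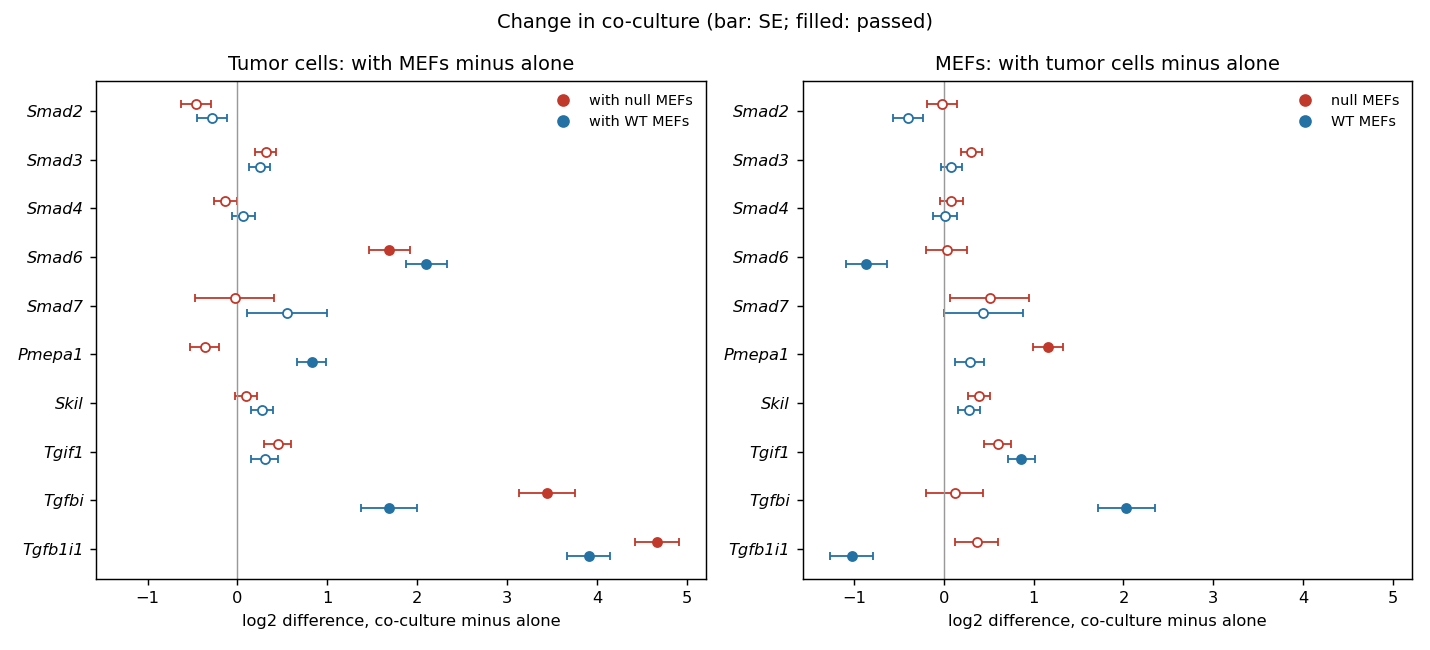
Log2 difference of co-culture minus alone (x axis) for the 10 genes (rows) in tumor cells (left panel) and MEFs (right panel), with null MEFs or in null MEFs in red and with WT MEFs or in WT MEFs in blue. Bars are the SE and filled points passed. In tumor cells with either partner Smad6 and Tgfbi lie at 1.69 to 3.44 and Tgfb1i1 at lower bounds of 4.67 and 3.91, and in WT MEFs Smad6 and Tgfb1i1 lie below 0.

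Smad6 had 8.89 and 9.54 in tumor cells with null MEFs and 9.79 and 9.45 with WT MEFs, against 7.77 and 7.28 in tumor cells alone. The differences were 1.69 ± 0.23 with null MEFs (3.23-fold, adjusted p = 0.000545) and 2.10 ± 0.23 with WT MEFs (4.29-fold, adjusted p = 0.000237), and no co-culture array overlapped those alone. On the 12 sound scanner arrays the Smad6 call with WT MEFs was lost (2.35, adjusted p = 0.0579), and with normexp both were (1.87, adjusted p = 0.125 with null MEFs and 1.63, adjusted p = 0.166 with WT MEFs). The Smad6 signal above tumor cells alone stood at 19.3% (A) and 37.7% (B) of that in null MEFs and at 27.8% and 20.4% of that in WT MEFs, higher on each array than the median of the MEF-typical genes. After subtraction it was 1.11 higher with null MEFs (adjusted p = 0.00805) and 1.78 higher with WT MEFs (adjusted p = 0.00104).

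Smad6 is itself a BMP target. Of 8 other BMP-SMAD target genes 5 rose with null MEFs and 7 with WT MEFs, with 0 lower. Of all genes tested 19.7% and 11.8% passed in either direction. Fibroblast markers rose as well, 10 of 16 with null MEFs and 15 with WT MEFs, with 0 lower (medians 2.30 and 3.44). Their part in the list counts was not tested. Of the 23 TGF-beta target genes 10 rose and 3 fell with null MEFs (10 and 2 after subtraction), and 10 rose and 4 fell with WT MEFs (6 and 4 after subtraction). Id1 rose by 1.95 ± 0.19 with null MEFs and 2.59 ± 0.19 with WT MEFs, Id3 by 3.05 ± 0.29 and 3.02 ± 0.29, and Hey1, a Notch and BMP target, by 1.36 ± 0.11 and 1.95 ± 0.11. After subtraction of the MEF share 5 of the 8 BMP-SMAD target genes were higher with null MEFs and 6 with WT MEFs, with 0 lower. Without the 2 arrays with a faulty scanner file 4 of these 8 rose with null MEFs and 7 with WT MEFs. Lrrc32, which anchors latent TGF-beta at the cell surface, rose by 2.66 ± 0.32 with null MEFs and 3.35 ± 0.32 with WT MEFs, and by 2.61 and 1.67 after subtraction (adjusted p = 0.0013 and 0.026).

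Tgfbi had 12.90 and 14.12 in tumor cells with null MEFs and 11.83 and 11.68 with WT MEFs, against 9.89 and 10.25 in tumor cells alone. The differences were 3.44 ± 0.31 with null MEFs (10.9-fold, adjusted p = 3.19e-05) and 1.69 ± 0.31 with WT MEFs (3.22-fold, adjusted p = 0.00604). With null MEFs, the Tgfbi signal above tumor cells alone was 13.7% and 35.0% of that excess in the partner, beside the 9.62% and 23.9% of MEF-typical genes, and its difference was 2.83 without the B array (adjusted p = 1.19e-05) and 2.25 after subtraction (adjusted p = 0.00198). With WT MEFs it was 55.9% and 47.9% of the partner's excess, and the difference after subtraction was 1.61 (adjusted p = 0.0213).

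Tgfb1i1 was not well above background in tumor cells alone, where its 2 arrays read 5.77 and 5.78. It had 9.94 and 10.95 in tumor cells with null MEFs and 9.70 and 9.67 with WT MEFs, at least 25.4-fold higher (adjusted p = 3.92e-07) and at least 15-fold higher (adjusted p = 6.92e-06). These bounds take the signal of tumor cells alone as the floor. With WT MEFs, the Tgfb1i1 excess was 8.48% and 8.26% of the partner's, close to the 7.46% and 7.40% of MEF-typical genes. The log2 difference was at least 3.91, and 1.43 after subtraction (adjusted p = 0.0125). With null MEFs the excess was 33.3% and 68.8% of the partner's, above the 9.62% and 23.9%. The log2 difference was at least 4.67, and 4.40 after subtraction (adjusted p = 3.16e-06). Values after subtraction depend on the share taken off and are no lower bounds. The spread of shares among MEF-typical genes was not assessed, so the 1.43 may reflect a share slightly off the median.

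**Figure D4:**
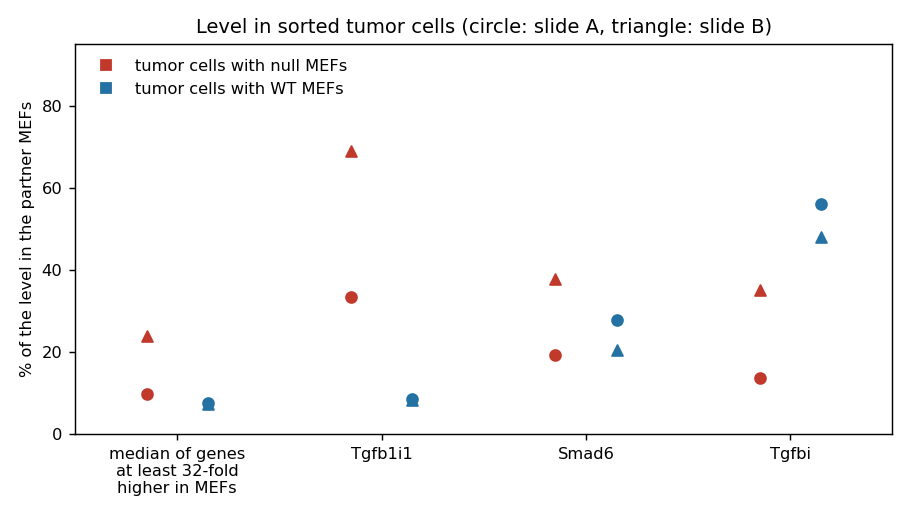
Signal above tumor cells alone in sorted tumor cells, as a percentage of that in the partner MEFs (y axis), for the median of genes at least 32-fold higher in MEFs and for Tgfb1i1, Smad6 and Tgfbi (x axis), with null MEFs in red and WT MEFs in blue, slide A as circles and slide B as triangles. With WT MEFs Tgfb1i1 lies at 8.48% and 8.26%, next to the median of 7.46% and 7.40%, and Tgfbi lies at 55.9% and 47.9%.

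Pmepa1 had 11.11 and 11.62 in tumor cells with null MEFs and 12.63 and 12.49 with WT MEFs, against 11.85 and 11.62 in tumor cells alone. With WT MEFs both arrays lay above tumor cells alone (0.83 ± 0.16, 1.77-fold, adjusted p = 0.00843), and 0.79 remained after subtraction (adjusted p = 0.0457). When slide A of the WT co-culture was left out Pmepa1 missed the threshold (0.76, adjusted p = 0.0603), as it did when slide B of tumor cells alone was (0.71, adjusted p = 0.0551). With null MEFs the difference was -0.37 ± 0.16 (adjusted p = 0.145), and without the null-partner B array it was -0.62 (adjusted p = 0.0259).

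The remaining members did not pass in tumor cells with either partner. Smad2 had differences of -0.46 ± 0.17 with null MEFs and -0.28 ± 0.17 with WT MEFs, Smad3 of 0.31 ± 0.12 and 0.25 ± 0.12, and Tgif1 of 0.45 ± 0.15 and 0.31 ± 0.15. With the slide as a block these 3 genes passed with null MEFs, at adjusted p = 0.0455 for Smad2, 0.0476 for Smad3 and 0.0299 for Tgif1. In the deposited log2 values Smad4 (-0.14 ± 0.13 and 0.06 ± 0.13) and Skil (0.10 ± 0.12 and 0.28 ± 0.12) stayed close to 0. The Smad4 probes on the sound scanner arrays read -0.81 and -0.45 with null MEFs and -0.14 and -0.35 with WT MEFs. Those arrays hold tumor cells alone, and tumor cells with null MEFs, on slide B only. Smad7 had differences of -0.03 ± 0.44 with null MEFs and 0.55 ± 0.44 with WT MEFs, and within slides A and B the second was 0.54 and 0.56 (adjusted p = 0.0612 with the slide as a block).

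Tumor cells that had grown with null rather than WT MEFs differed in 2 of the 10 genes, 1 higher and 1 lower, where 9.49% of all genes tested passed. Pmepa1 had 11.11 and 11.62 with null MEFs, against 12.63 and 12.49 with WT MEFs (-1.19 ± 0.16, 2.29-fold, adjusted p = 0.00116). After subtraction it was -1.02 (adjusted p = 0.00916), and without the A or the B array of tumor cells with null MEFs it was -0.94 and -1.45 (adjusted p = 0.00315 and 0.000278). Tgfbi had 12.90 and 14.12 with null MEFs, against 11.83 and 11.68 with WT MEFs (1.75 ± 0.31, adjusted p = 0.00564), and did not pass after subtraction (0.64, adjusted p = 0.285). Tgfb1i1 had 9.94 and 10.95 with null MEFs, against 9.70 and 9.67 with WT MEFs (0.76 ± 0.24, adjusted p = 0.0799). The Tgfb1i1 difference was 1.26 without the null-partner A array, 0.25 without the B array and 2.96 after subtraction (adjusted p = 7.36e-05). Subtraction left 7.29 and 7.13 with WT MEFs, against 9.61 and 10.73 with null MEFs. The 2.96 thus rests on a small remainder with WT MEFs that depends on the share taken off.

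Grown apart, the 2 cell types differed in most of the 10 genes. Between tumor cells and null MEFs 9 passed, 6 higher and 3 lower in tumor cells, where 52.6% of all genes tested passed. Between tumor cells and WT MEFs 7 passed, 3 higher and 4 lower in tumor cells, where 51.4% passed. Tgfb1i1 was at least 40.1-fold lower in tumor cells than in null MEFs and at least 342-fold lower than in WT MEFs. Smad6 was 8.83-fold lower in tumor cells than in null MEFs (-3.14 ± 0.23) and 26.7-fold lower than in WT MEFs (-4.74 ± 0.23).

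Smad7, the other inhibitory SMAD, was the reverse, with 10.96 and 10.47 in tumor cells alone, against 8.52 and 7.58 in null MEFs alone and 9.86 and 8.96 in WT MEFs alone. It was 2.66 ± 0.44 higher in tumor cells than in null MEFs (adjusted p = 0.00048) and 1.30 ± 0.44 higher than in WT MEFs (adjusted p = 0.0308), the last of which was lost when slide A of tumor cells alone (1.05, adjusted p = 0.155) or slide B of WT MEFs alone (0.85, adjusted p = 0.222) was left out. Pmepa1 stood between the fibroblast genotypes, 2.36 ± 0.16 higher in tumor cells than in null MEFs (adjusted p = 6.55e-07) and -0.92 ± 0.16 against WT MEFs (adjusted p = 0.000735). Tgfbi was -5.37 ± 0.31 against null MEFs (41.5-fold lower, adjusted p = 1.85e-07) and -0.37 ± 0.31 against WT MEFs (adjusted p = 0.361).

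Skil was higher in tumor cells than in null MEFs (1.02 ± 0.12) and WT MEFs (0.43 ± 0.12), and so was Tgif1 (0.72 ± 0.15 and 0.62 ± 0.15). Smad2 and Smad4 were higher than in null MEFs (0.65 ± 0.17 and 0.72 ± 0.13) and differed from WT MEFs by -0.06 ± 0.17 and 0.08 ± 0.13. On the sound scanner arrays, however, the Smad4 probes read 0.84 and 0.47 higher in tumor cells than in WT MEFs. Those arrays hold tumor cells alone on slide B only. Smad3 was lower in tumor cells than in WT MEFs (-0.36 ± 0.12, adjusted p = 0.0258), a call lost when slide A of tumor cells alone was left out (-0.27, adjusted p = 0.147) or either array of WT MEFs alone (adjusted p = 0.0744 and 0.107). Skil against WT MEFs was lost when slide A of tumor cells alone was left out (adjusted p = 0.0555) or slide B of WT MEFs alone (adjusted p = 0.0995), Tgif1 against WT MEFs without WT MEFs alone A (adjusted p = 0.056), and Smad2 against null MEFs without null MEFs alone B (adjusted p = 0.062).

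The order of the 7 groups differed between the genes. Tgfb1i1 and Smad6 were highest in WT MEFs alone, then in WT MEFs with tumor cells, then in both null MEF groups, and lowest in the tumor groups, with tumor cells alone last. The Smad6 arrays overlapped only between the 2 null MEF groups and between the 2 tumor co-cultures, and the Tgfb1i1 arrays overlapped between no neighbouring groups. Smad7 and Skil ran from tumor cells with WT MEFs at the top to null MEFs alone at the bottom, Skil without overlap of any neighbours. Tgfbi was highest in the 2 null MEF groups, which overlapped, and lowest in tumor cells alone.

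Over the 7 group means Smad7 and Skil had r = 0.98, Smad6 and Tgfb1i1 r = 0.97, Smad4 and Smad7 r = 0.90, and Smad2 and Tgfbi r = -0.98. These describe 7 points that share cell types and culture, and a difference between cell types by itself gives a high r. Among 18932 genes well above background in all groups, those with the most similar pattern were Wnt4 (r = 0.997), Vasn and Zfyve1 for Smad6, Grk5 and the predicted genes Gm2393 and Gm3237 for Pmepa1, Ppil2, Uap1l1 and Pgcp for Tgfbi, and Stx12, Mocs1 and Slco3a1 for Tgfb1i1, with r from 0.988 to 0.997. For Smad7 they were Lmna and Shox2 (r = 0.997 and 0.994) and a probe with no gene name.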

How the data were processed

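One-colour Agilent arrays measured 7 groups of 2 samples. The scanner files hold intensity values from Feature Extraction (version 9.1 per the submitters' processing notes), and the authors' deposited table holds log2 values, of which the scaling between arrays is not stated in the sources used here; array medians were 6.34 to 6.40. Against scanner intensities the table matched the mean over a gene's spots best (r = 0.984). The table replaced the planned scanner values because 2 scanner files were faulty (at most r = 0.475 and 0.302 with sound arrays). A 7-group model (7 residual degrees of freedom) was fitted with limma 3.58.1 in R 4.3.3, with Benjamini-Hochberg adjustment over 25896 genes, those well above background in at least 1 group. Scripts were tested on simulated data. Samples with the same replicate letter were taken to share a slide. The A minus B deviations of the groups correlated by 0.092 to 0.599 over 21 pairs, so the slide block is an alternative. The partner's share was subtracted as the median share of cell-type-typical genes. All 10 members were named, with the list genes of the smallest p per comparison (up to 3) and some chosen after their values were seen. Results of some listed genes are not reported here, though list counts include them. Genes of like pattern were the 3 with the highest Pearson r for each member whose group means had an SD of at least 0.5. Members, lists and tests were chosen with earlier results of these data known.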

Additional observations from a re-analysis of the deposited data

Results flagged for a closer look

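The Tgfbi response to tumor cells differed between the fibroblast genotypes by a test of the difference itself. It was -1.91 ± 0.44 (null minus WT response, adjusted p = 0.0477, limma), with responses of -0.08 and 0.32 in null MEFs, against 2.11 and 1.96 in WT MEFs, on slides A and B. The null level was 15.36 to 15.77 in both cultures, no probe of Tgfbi was saturated on a sound array, and leaving out 12 of the 14 arrays in turn lost the call, with adjusted p up to 0.166. These are log2 responses, from mean levels of 15.45 in null MEFs alone and 10.44 in WT MEFs alone. Responses on the linear scale were not compared, and the cause of the difference was not tested.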

How the results depend on the processing

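Of 2570 recomputed member differences, 2398 kept their call and direction, 116 lost the call, 48 gained it and 8 reversed; a value that passed in neither fit was taken to have no direction. The slide as a replicate block lost 0 of 100 calls and gained 6, so that 6 members passed in tumor cells with null MEFs (3 without it), 2 in null MEFs with tumor cells (1) and 2 for the difference of responses (1). With each cell type fitted alone, 2 passed in tumor cells with WT MEFs (4), 1 between partners (2) and 4 for the difference of responses. That difference gave 0 without the filter on dim genes and 0 after quantile normalisation (limma, adjusted p = 0.0637 and 0.0527 for Tgfbi), and 3 on the 12 sound scanner arrays, 3 with normexp and 3 without the 2 arrays with a faulty scanner file. The last setting, added after the data were seen, left 4 between tumor cells and WT MEFs alone (7).

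Leaving out 1 array at a time gave 3 to 4 members in tumor cells with null MEFs, 3 to 4 with WT MEFs, 2 to 3 between partners, 1 to 2 in null MEFs and 2 to 4 in WT MEFs with tumor cells, 7 to 9 between genotypes alone and 3 to 7 in co-culture, 0 to 3 for the difference of responses, and 8 to 9 and 4 to 7 between tumor cells and null or WT MEFs alone.

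All 14 scanner arrays, with the 2 faulty files kept, gave 0 members in every co-culture comparison, between partners and for the difference of responses, 1 between genotypes alone, and 2 and 1 between tumor cells and null or WT MEFs alone. Only this setting reversed members: Smad6 to -1.88 and -0.82 in tumor cells with null and WT MEFs, Skil to -0.59 and -1.20 and Tgif1 to -2.43 and -2.46 in tumor cells against null and WT MEFs, and Smad2 to -1.95 and Smad4 to -0.28 against null MEFs. Of other pathway genes it reversed Tgfbr2 (0.30, tumor cells with null MEFs), Smurf1 (-0.88 between partners, -0.99 against null MEFs), Nedd4l (-0.26 against null MEFs) and Fstl3 (-0.79 between partners). Tgfb1i1 in tumor cells alone, below background, is limited by signal.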
